A study of Equus caballus with 2 samples.

Results

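The endometrium is steered by steroid hormones, and 9 genes of this system were followed in cultured equine endometrial fibroblasts with and without transforming growth factor beta 1 (TGF-β1), a growth factor that drives fibrosis. The genes encode the receptors for progesterone (*PGR*), oestrogen (*ESR1* and *ESR2*), glucocorticoids (*NR3C1*) and mineralocorticoids (*NR3C2*), the membrane-associated protein PGRMC1, the cortisol-producing enzyme HSD11B1, and the receptor cochaperones FKBP5 and FKBP4. They were chosen by name as members of this pathway, with earlier results of these data known, and all 9 were found among the 21426 genes listed for each library.

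Nuclear steroid receptors are transcription factors that wait in a complex with heat shock protein 90 and its cochaperones, bind their hormone, and then occupy DNA near the genes they regulate. In the endometrium, oestrogen acting on ESR1 raises the amount of *PGR*, and progesterone acting on PGR in stromal cells prepares the tissue for pregnancy and lowers the amount of both receptors. Cortisol acts through the glucocorticoid receptor and can also occupy the mineralocorticoid receptor, and HSD11B1 sets how much active cortisol a cell makes from cortisone.

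The fibroblasts came from 4 mares in the mid-luteal phase with healthy or mildly fibrotic endometrium, obtained as abattoir material, and their age and breed were not given in the sources used here. At passage 3 they were grown on collagen-coated hydrogels. For the last 24 h both groups were kept in medium with 0.1% BSA in place of serum, to which the methods name no added steroid. The control group received nothing else, and the TGF-β1 group received 10 ng/ml of the human recombinant protein. Cells of the 4 mares were pooled before loading, so that each group is 1 droplet library and the mares cannot be told apart here. MFGE8-treated cells were not analysed here.

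Transcripts were counted by unique molecular identifier (UMI), which prevents amplified copies from being counted more than once. Cells were kept from 20000 UMIs and 3500 genes upwards when mitochondrial genes took less than 4% of their UMIs. These were 3865 of 4384 control barcodes (median 50313 UMIs) and 4513 of 5124 TGF-β1 barcodes (median 43142 UMIs), and the libraries had 6 deposited barcodes in common, 2 of them kept. The label fibroblast was checked against marker lists. All 9 stromal markers were found above 10 CPM (UMIs scaled to the library's total) in both libraries, with *COL1A1* at 5608 and 6376 CPM and *VIM* at 4399 and 2240 CPM in the control and TGF-β1 library, whereas the defining markers of epithelial (*EPCAM*, 1 and 3 UMIs), immune (*PTPRC*, 1 and 0 UMIs) and endothelial cells (*PECAM1*, 9 and 8 UMIs) were nearly absent. With 1 library per group no test was possible. The intervals below are exact binomial 95% intervals that cover counting error only, and treatment, library preparation and the make-up of the pool cannot be told apart.

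The library treated with TGF-β1 held fewer transcripts of the sex steroid receptors and more of the corticosteroid receptors. *ESR1*, *PGR* and *ESR2* were 2.09-fold, 1.69-fold and 1.70-fold lower than in the control library. *NR3C2* and *NR3C1* were 1.62-fold and 1.42-fold higher, and *PGRMC1* and *FKBP4* differed by less than 5%. Averaged over the libraries, 7 of the 9 genes reached 10 CPM, and these 7 exceeded that level in both. Among these 7, only *ESR1* differed by more than 2-fold, which 4.43% of all 7658 genes at this level did in either direction and 2.13% did downwards. A difference of more than 1.5-fold was found for *ESR1*, *PGR* and *NR3C2*, against 12.7% of all genes. The counting interval of the ratio lay off 0 for 6 of the 7, but so it did for 86.6% of all genes, so an interval off 0 sets no gene apart in libraries this deep.

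**Figure D1:**
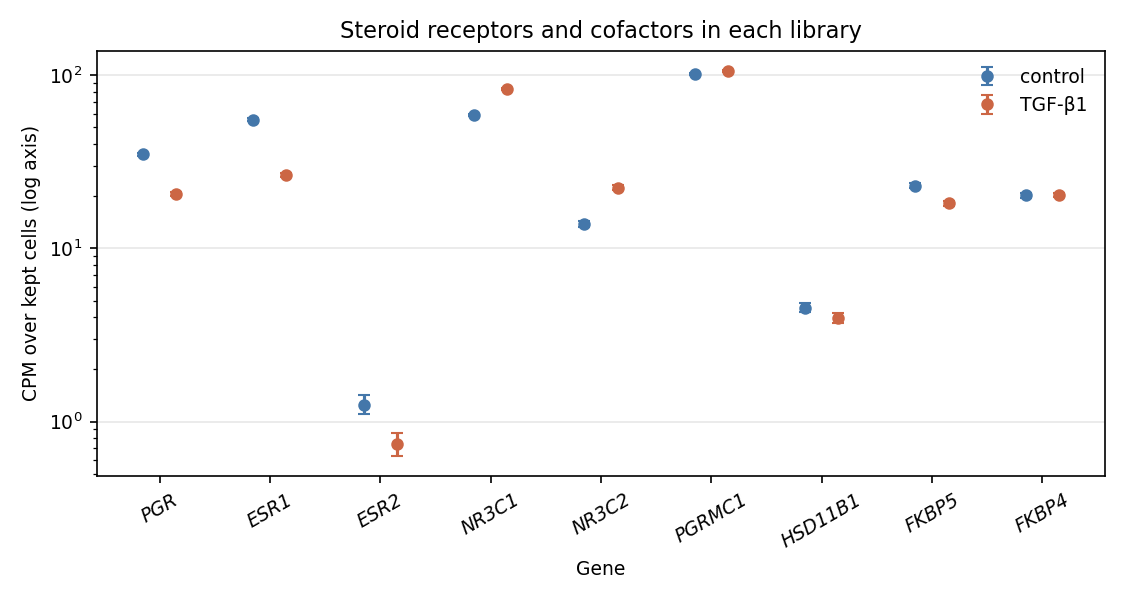
Level of each of the 9 genes in the control (blue) and TGF-β1 (orange) library, in CPM over the kept cells on a log axis, with exact binomial 95% intervals that are often smaller than the point. The blue points of *PGR*, *ESR1* and *ESR2* lie above the orange ones, and the order is turned for *NR3C1* and *NR3C2*.

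*ESR1* (ENSECAG00000022441), the main oestrogen receptor of the endometrium, was counted 11671 times in the control library and 5817 times in the TGF-β1 library. Its level was 55.4 CPM (54.4 to 56.5) in control cells and 26.5 CPM (25.8 to 27.2) in TGF-β1 cells. As a log2 ratio, here always TGF-β1 over control, this was -1.07 (-1.11 to -1.02), and 146 of the 7658 genes had a lower ratio. The 2-fold limit was only just passed, since without the cells of a small cluster rich in *ESR1*, described below as rebuilt cluster 7, the log2 ratio was -0.995 and none of the 9 genes differed by more than 2-fold.

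*PGR* (ENSECAG00000011511), the nuclear progesterone receptor and itself a target of oestrogen, was at 35.0 CPM (34.2 to 35.8) in the control library and 20.6 CPM (20.1 to 21.3) in the TGF-β1 library. This is a log2 ratio of -0.76 (-0.81 to -0.71), below which 304 of the 7658 genes lay. *ESR2* (ENSECAG00000024947), the other nuclear oestrogen receptor, was scarce in both libraries, with 264 UMIs or 1.25 CPM in control and 162 UMIs or 0.737 CPM in TGF-β1 cells. Its log2 ratio of -0.77 (-1.06 to -0.48) was close to that of *PGR*, with a wider interval from the low count.

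*NR3C1* (ENSECAG00000009473), the glucocorticoid receptor, was the most abundant of the 5 nuclear receptors in both libraries. It was at 58.9 CPM (57.9 to 60.0) in control and 83.6 CPM (82.4 to 84.8) in TGF-β1 cells, a log2 ratio of 0.50 (0.47 to 0.54). *NR3C2* (ENSECAG00000016605), the mineralocorticoid receptor, was at 13.9 CPM (13.4 to 14.4) and 22.5 CPM (21.9 to 23.1), a log2 ratio of 0.70 (0.63 to 0.76). Of the 7658 genes, 353 had a higher ratio than *NR3C2* and 620 a higher ratio than *NR3C1*.

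These opposite differences changed the mixture of receptor transcripts while their sum stayed close, at 164 CPM in control and 154 CPM in TGF-β1 cells. *PGR*, *ESR1* and *ESR2* made up 55.7% (55.2 to 56.3) of the UMIs of the 5 receptors in the control library and 31.1% (30.6 to 31.6) in the TGF-β1 library. *NR3C1* alone made up 35.8% in control and 54.3% in TGF-β1 cells. Such shares compare genes with each other, and the counts come from the 3′ ends of transcripts, without scaling by gene length. How completely the annotation covers the 3′ end of each gene was not tested.

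The transcripts of the other 4 genes differed less. *PGRMC1* (ENSECAG00000039508), a haem-binding membrane protein linked to progesterone signalling, was the most abundant of the 9 genes, with 102 CPM in control and 106 CPM in TGF-β1 cells and a log2 ratio of 0.06 (0.03 to 0.08). *FKBP4* (ENSECAG00000020465), the cochaperone FKBP52 that promotes receptor activity, was at 20.3 CPM and 20.4 CPM, with a log2 ratio of 0.01 (-0.05 to 0.07). *FKBP5* (ENSECAG00000011304) encodes FKBP51, which lowers the hormone affinity of the glucocorticoid receptor and is induced by glucocorticoids and progestins. It was at 23.1 CPM (22.4 to 23.8) in control and 18.2 CPM (17.7 to 18.8) in TGF-β1 cells, a log2 ratio of -0.34 (-0.40 to -0.28). *HSD11B1* (ENSECAG00000019243) was low, at 4.55 CPM and 3.99 CPM, and its log2 ratio was -0.19 (-0.32 to -0.06), or -0.41 when standardised over bins of UMIs per cell.

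To compare the share of cells with a transcript, each cell was thinned to 20000 UMIs, because control cells had more UMIs each. Thinned cells held a mean of 0.70 (control) and 0.42 (TGF-β1) *PGR* UMIs. With so few UMIs a share also follows the level, and it cannot tell fewer expressing cells from a lower level per cell. At this equal depth, a *PGR* UMI was held by 44.6% (43.1 to 46.2) of cells in the control and 32.3% (31.0 to 33.7) in the TGF-β1 library. For *ESR1* the shares were 42.9% and 31.4%, a difference of -11.5 points (-13.6 to -9.47). *ESR2* was found in 2.15% and 1.53% of cells, a difference of 0.62 percentage points whose interval nearly reached 0. The share of cells with *NR3C1* was larger with TGF-β1, at 71.8% (70.5 to 73.1) against 62.0% (60.5 to 63.6), and that with *NR3C2* was 25.0% (23.7 to 26.3) against 18.0% (16.8 to 19.3). The shares with *FKBP5* were 33.3% and 27.1%. The differences of *PGRMC1* (1.07 points, -0.41 to 2.57), *FKBP4* (1.15 points, -0.86 to 3.15) and *HSD11B1* (-0.15 points, -1.29 to 0.97) had intervals that held 0.

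Without thinning, the shares were 72.7% and 54.6% for *PGR*, 62.0% and 49.2% for *ESR1*, 33.4% and 39.9% for *NR3C2*, 59.6% and 49.3% for *FKBP5*, and 5.77% and 3.19% for *ESR2*, in control and TGF-β1 cells. The difference of *NR3C1* shrank to 86.9% against 88.7%, and most cells of both libraries held a UMI. *FKBP4* turned to 60.8% against 57.9%. *HSD11B1* was in 15.2% and 13.6% of cells and *PGRMC1* in 98.2% and 97.9%. RNA free in the droplets can add UMIs to cells that do not express a gene, and these cultures held no cell type that should lack the receptors. No background share can therefore be given. As a description, after thinning again, the lowest share in any of the rebuilt clusters described below was 35.2% (control) and 20.0% (TGF-β1) for *PGR*, 80.0% and 85.5% for *PGRMC1*, 21.9% and 15.8% for *FKBP5*, 28.0% and 29.5% for *FKBP4*, 2.22% and 2.42% for *HSD11B1* and 0.602% and 0.483% for *ESR2*. The part of free RNA in these shares was not tested.

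*ESR1* was unevenly spread over cells. After thinning, its variance over cells was 5.49 times its mean in the control library and 2.01 times in the TGF-β1 library. The same values were 1.52 and 1.15 for *PGR*, 1.51 and 1.86 for *NR3C1* and 1.82 and 2.32 for *NR3C2*. In the TGF-β1 library *NR3C2* was thus above *ESR1*. The 10% of cells with the most UMIs held 57.1% of the *ESR1* UMIs in each library, and 70.5% (control) and 64.3% (TGF-β1) of the *NR3C2* UMIs. A cell with 5 or more *ESR1* UMIs was found 218 times among control cells, a share of 5.64% (4.93 to 6.41), and 64 times among TGF-β1 cells, a share of 1.42% (1.09 to 1.81). Those cells held 42.9% of the thinned *ESR1* UMIs in the control and 15.9% in the TGF-β1 library. With 10 or more UMIs there were 51 control cells and 1 TGF-β1 cell, and the highest count in a cell was 48 and 10. In *NR3C1* the opposite was seen, with 5 or more UMIs in 85 control cells (2.20%) and 274 TGF-β1 cells (6.07%).

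**Figure D2:**
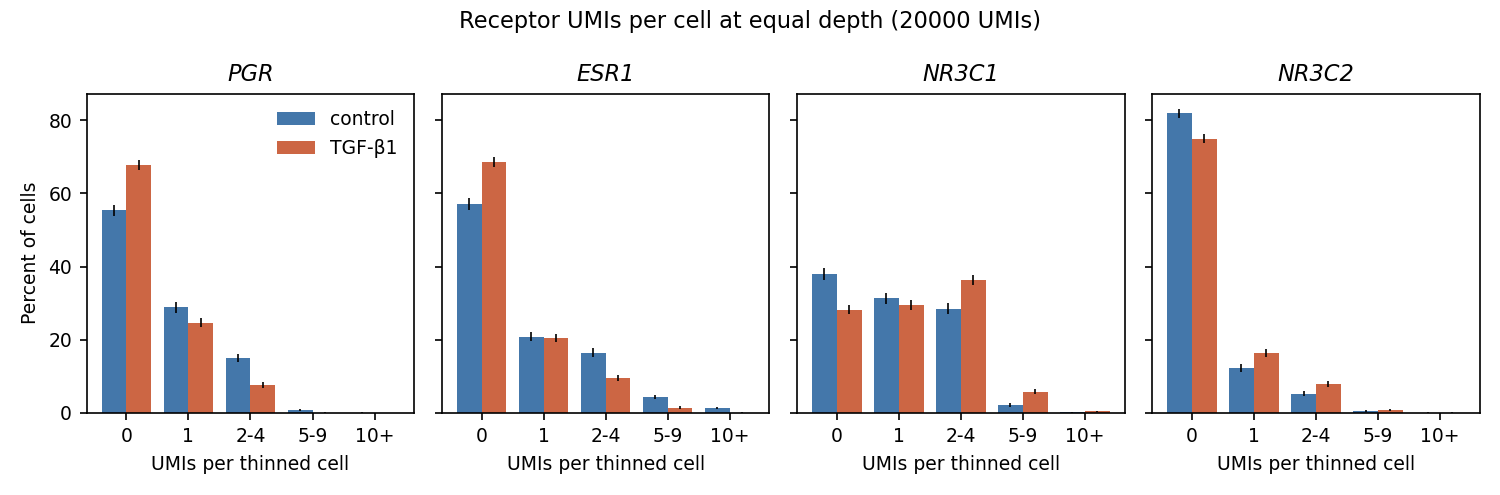
Percent of cells by number of UMIs of *PGR*, *ESR1*, *NR3C1* and *NR3C2* after thinning each cell to 20000 UMIs, in control (blue) and TGF-β1 (orange) cells, with exact binomial 95% intervals. For *PGR* and *ESR1* more TGF-β1 cells held 0 UMIs and fewer held 2 or more, whereas for *NR3C1* and *NR3C2* fewer held 0.

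Cells with more *ESR1* more often held *PGR*. In the control library, at equal depth, *PGR* was found in 38.3% (36.3 to 40.4) of cells without an *ESR1* UMI, in 47.6% with 1, in 55.7% with 2 to 4, in 63.5% with 5 to 9 and in 72.5% (58.3 to 84.1) with 10 or more. In the TGF-β1 library the shares were 30.1% (28.5 to 31.7) without *ESR1*, 34.4% with 1, 41.4% with 2 to 4 and 49.2% (36.4 to 62.1) with 5 to 9. Within each class of *ESR1* up to 5 to 9 UMIs, the share with *PGR* was therefore lower with TGF-β1, although the intervals of the class with 5 to 9 overlapped. The share with *NR3C1* also grew with *ESR1*, from 58.4% to 78.4% in control cells, while that with *FKBP4* stayed between 30.1% and 32.5%. Cells of 1 mare could fill a class more than others, and this was not tested.

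The cells were grouped into 8 clusters by the 2000 most variable genes. *ESR1*, *NR3C1*, *NR3C2* and *HSD11B1* were among the 2000 genes used for this, so their levels across clusters are a description. Each cluster held between 54 and 1216 cells of a library. Only rebuilt cluster 6 was named, as cycling-like, because 9 of 9 detected markers of dividing cells were more than 2-fold higher there. Rebuilt cluster 5 was led by *CFD* and *CRABP2* and rebuilt cluster 7 by *CA4* and *CDKN1A*, and they stay unnamed.

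*ESR1* ranged from 11.0 CPM in rebuilt cluster 5 to 177 CPM in rebuilt cluster 7 of the control library, and from 3.21 to 53.2 CPM in the same clusters of the TGF-β1 library. It was lower with TGF-β1 in all 8 clusters, with log2 ratios from -1.78 to -0.69, all with intervals below 0, and by more than 2-fold in 5 clusters. In rebuilt cluster 7 it was found in 59.0% of 105 control cells and 51.9% of 54 TGF-β1 cells. In rebuilt cluster 5 it was found in 20.5% and 7.37%, the lowest shares of any cluster. The 218 control cells with 5 or more *ESR1* UMIs lay mostly in rebuilt clusters 2 (66 cells) and 1 (58 cells). Such cells made up 22.9% (15.2 to 32.1) of rebuilt cluster 7 in the control and 7.41% (2.06 to 17.9) in the TGF-β1 library.

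*PGR* was lower with TGF-β1 in all 8 clusters as well, with log2 ratios between -1.36 in rebuilt cluster 7 and -0.33 (-0.60 to -0.07) in the cycling-like cluster. Its control level was highest in rebuilt clusters 7 (55.4 CPM) and 2 (54.7 CPM) and lowest in rebuilt cluster 5 (21.1 CPM), where it was held by 38.6% (31.1 to 46.4) of cells in the control and 20.0% (14.6 to 26.4) in the TGF-β1 library. *ESR2* was lower in each of the 6 clusters that had enough UMIs for a ratio, with the interval below 0 in 2 of them. This did not hold at a finer clustering resolution of 0.8, where it was higher in 2 of 10 clusters.

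*NR3C1* was higher with TGF-β1 in all 8 clusters. Its log2 ratio was largest in rebuilt cluster 2 (0.74, from 73.1 to 122 CPM) and smallest in rebuilt cluster 3 (0.14, from 61.3 to 67.6 CPM), and only in rebuilt cluster 5 did its interval hold 0. There 38.6% and 42.6% of cells held it, its lowest shares. *NR3C2* was higher in 7 clusters. Its log2 ratio was largest in rebuilt cluster 3 (1.22, 1.04 to 1.40), where it went from 9.31 to 21.7 CPM, so the cluster with the smallest difference in *NR3C1* had the largest in *NR3C2*. In rebuilt cluster 7 *NR3C2* was lower, at 18.2 CPM in control and 10.2 CPM in TGF-β1 cells, a log2 ratio of -0.84 (-1.51 to -0.22) that rests on 102 and 27 UMIs. Its lowest shares were again in rebuilt cluster 5, at 3.61% and 5.79%.

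*FKBP5* was lower with TGF-β1 in all 8 clusters, with intervals below 0 in 6. In the control library it was highest in the cycling-like cluster, at 38.5 CPM, against 24.4 CPM with TGF-β1. *FKBP4* was highest there in both libraries, at 32.8 and 30.3 CPM, and had no cluster with an interval off 0. *PGRMC1* stayed between 96.3 and 112 CPM in every cluster of both libraries. Intervals on either side of 0 in different clusters were found for *NR3C2* and *HSD11B1*, and for 8.72% of all 12116 genes that averaged 1 CPM or more. *HSD11B1* was higher in 3 clusters and lower in 5, with its highest control levels in rebuilt clusters 7 (8.58 CPM) and 2 (8.14 CPM).

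Of the 7 genes with at least 10 CPM, *PGR*, *ESR1* and *FKBP5* were lower in all 8 clusters, as 25.1% of all genes at this level were, and *NR3C1* was higher in all 8, as 22.3% of them were. Clusters of a library share its cells' treatment and preparation and are not replicates.

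**Figure D3:**
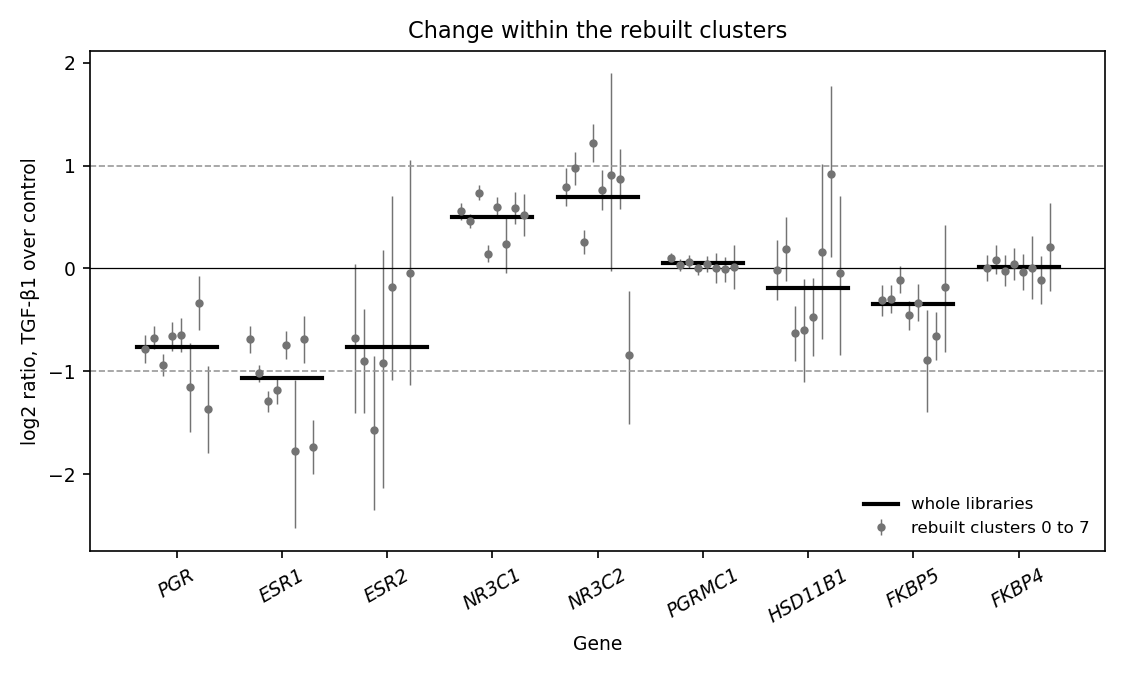
Log2 ratio of TGF-β1 over control for each gene in rebuilt clusters 0 to 7 from left to right (grey points with 95% counting intervals) and over whole libraries (black bars), with dashed lines at 2-fold. All points of *PGR*, *ESR1* and *FKBP5* lie below 0 and all of *NR3C1* above, whereas *NR3C2* has 1 point below 0, in rebuilt cluster 7.

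**Figure D4:**
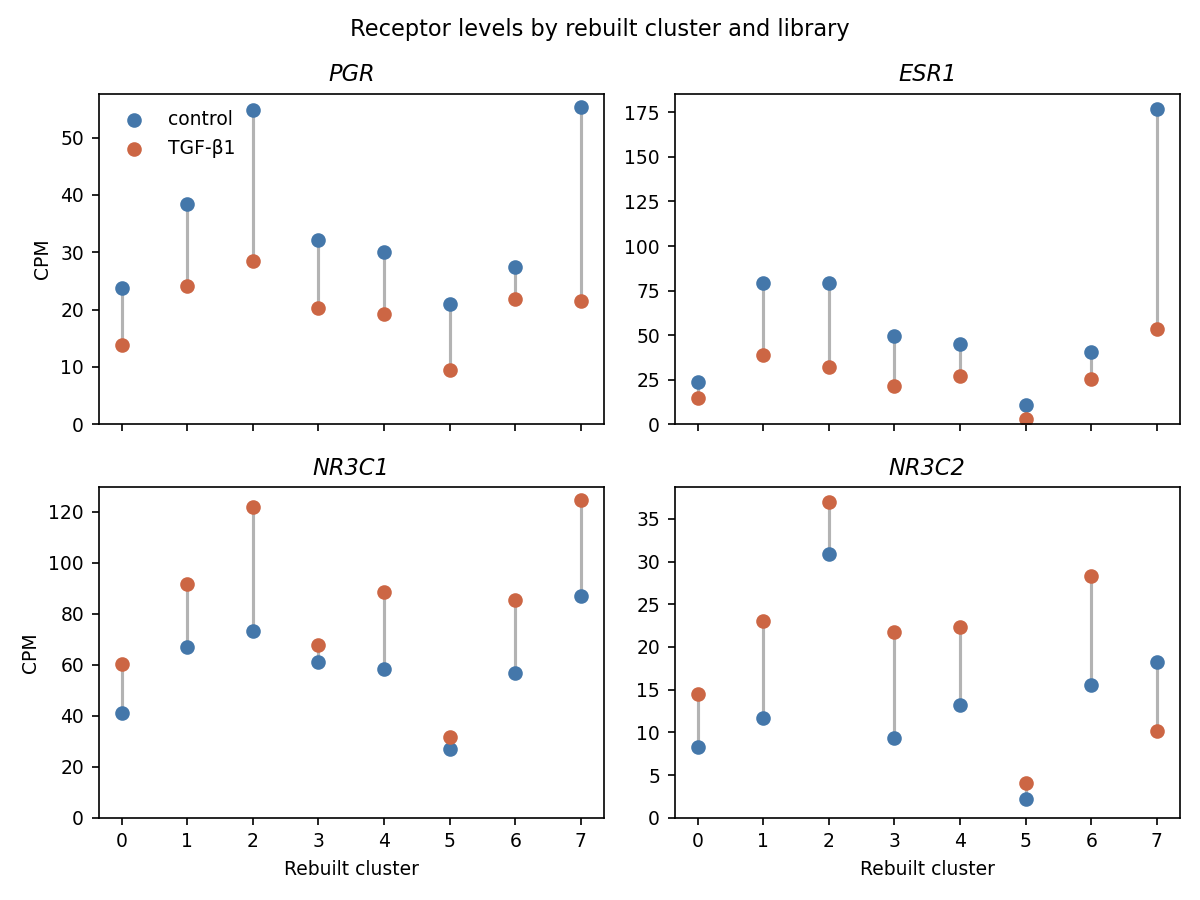
Level in CPM of *PGR*, *ESR1*, *NR3C1* and *NR3C2* in each rebuilt cluster of the control (blue) and TGF-β1 (orange) library, joined by a grey line. *ESR1* stands highest in rebuilt cluster 7 of the control library, and all 4 receptors are lowest in rebuilt cluster 5 in both libraries.

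The differences were also set out by depth of the cells and by cell cycle. In 4 bins of UMIs per cell, divided at 30000, 45000 and 70000, the log2 ratio of *ESR1* lay between -1.34 and -0.87 and that of *PGR* between -1.27 and -0.59. *NR3C1* was between 0.19 and 0.62. *NR3C2* ranged from -0.06 (-0.60 to 0.52) in the 140 control and 374 TGF-β1 cells below 30000 UMIs to 1.09 (0.99 to 1.19) in cells with 45000 to 70000. In the 84 control and 90 TGF-β1 cells with at least 3 cycling markers, *PGR* was at 26.5 and 24.6 CPM, a log2 ratio of -0.11 (-0.44 to 0.23), against -0.78 (-0.83 to -0.72) in the other cells. *ESR1* was lower in cycling (-0.90) and other cells (-1.07), and *NR3C2* had a log2 ratio of 1.35 (0.95 to 1.76) in cycling and 0.68 in other cells. In the 519 control and 611 TGF-β1 barcodes that did not pass the cell filters, *ESR1* was at 105 and 83.0 CPM, *PGR* at 80.0 and 53.4 CPM, *NR3C1* at 99.3 and 171 CPM and *NR3C2* at 44.4 and 67.3 CPM. These 4 receptors were higher there than in the kept cells of the same library, with the same directions between libraries. The direction was turned, from few UMIs, for *HSD11B1* and *ESR2*. *HSD11B1* was at 2.64 and 12.1 CPM (10 and 54 UMIs) and *ESR2* at 1.32 and 2.02 CPM (5 and 9 UMIs). *FKBP4*, whose interval held 0 in the kept cells, was at 17.2 and 13.9 CPM (65 and 62 UMIs).

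The wider pathway was described with lists of genes, over those that averaged 1 CPM or more. The median log2 ratio of all 12116 such genes was -0.01, with 5897 higher and 6219 lower, and 6.91% of them differed by more than 2-fold. The oestrogen-related receptor *ESRRA*, singled out after its values were seen, was at 18.3 CPM in control and 13.4 CPM in TGF-β1 cells. Across the list of nuclear receptors, 2 of 7 genes were higher and 5 lower, with a median of -0.45. *NR3C1* and *NR3C2* were the higher members of those 7.

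Among 5 membrane-associated receptors and related proteins the median was -0.01. *PGRMC2* was at 62.7 and 72.1 CPM, and *PAQR7*, a membrane progestin receptor, at 33.1 and 23.0 CPM, a log2 ratio of -0.52. The 18 chaperones and cochaperones had a median of -0.01, with 9 higher and 9 lower. They ranged between *AHSA1* (0.22), which stimulates heat shock protein 90, and the immunophilin *FKBP8* (-0.47), so none of them passed 2-fold. Of 28 coactivators and corepressors, 20 were higher and 8 lower, with a median of 0.09. At the ends of this list were the coactivator *NCOA3* (15.3 and 22.7 CPM, log2 ratio 0.57) and *PHB2* (44.2 and 30.6 CPM, -0.53), known as a repressor of oestrogen receptor activity.

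Of 16 genes for steroid synthesis and metabolism, 6 were higher and 10 lower, with a median of -0.16 that turned to 0.05 over the 10 genes with at least 10 CPM. The one that passed 2-fold was *SRD5A1*, a steroid 5α-reductase that acts on progesterone and testosterone. It was at 17.5 CPM in control and 53.9 CPM in TGF-β1 cells, a 3.07-fold difference (log2 ratio 1.62, 1.56 to 1.67), and was higher in all 8 clusters.

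Lists of genes known to rise with a hormone were mixed. Of 22 glucocorticoid-responsive genes, 9 were higher and 13 lower (median -0.28). More than 2-fold lower were 3 of them, *CEBPD* (1317 and 527 CPM), *NFKBIA* (186 and 79.5 CPM), an inhibitor of NF-κB, and *ANGPTL4* (2.96 and 0.833 CPM), which reached 1 CPM through the control library alone and was named after its values were seen. The secreted protein gene *CRISPLD2* (51.3 and 103 CPM) was 2.00-fold higher. Of 18 genes linked to progesterone or decidualization, 6 were higher and 12 lower (median -0.19), with *GAS1* (56.6 and 21.8 CPM) and *NR2F2* (174 and 83.7 CPM), a transcription factor of the endometrial stroma, more than 2-fold lower. Of 12 oestrogen-responsive genes, 4 were higher and 8 lower (median -0.48), and 1 was more than 2-fold higher and 2 more than 2-fold lower. The higher one was *CCND1*, which encodes cyclin D1, at 78.9 and 177 CPM. The lower ones averaged under 10 CPM and were named after their values were seen, *CXCL12* (6.82 and 0.965 CPM), a chemokine that reached the 1 CPM limit through the control library alone, and *CA12* (4.88 and 2.08 CPM), a carbonic anhydrase. The hormone lists share members with each other and with the 9 genes, many of their genes also respond to other signals, and no hormone was measured.

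**Figure D5:**
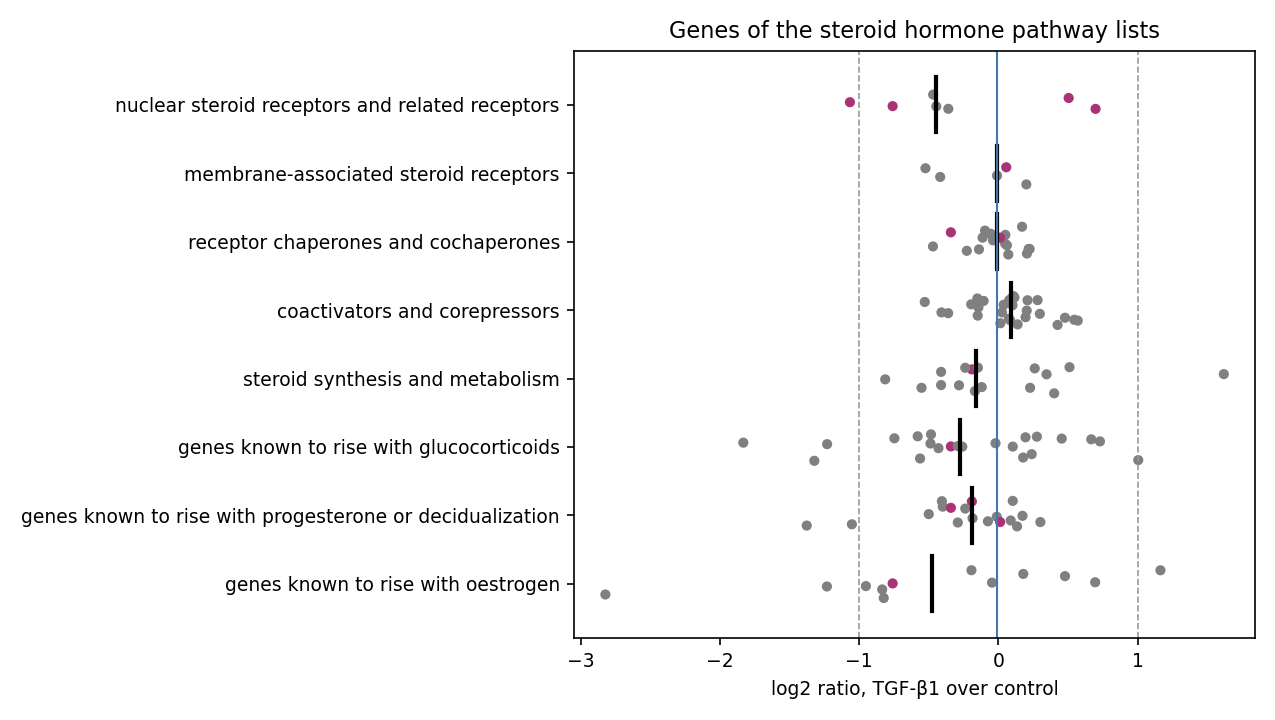
Log2 ratio of TGF-β1 over control for the genes of 8 pathway lists that averaged 1 CPM or more (points), the median of each list (black bar), the median of all genes (blue line) and 2-fold (dashed lines). Those of the 9 genes that reached this level, all but *ESR2*, are in purple. The points of the receptor list fall on both sides of 0, and *SRD5A1* lies alone on the right in the list of steroid metabolism.

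Markers of other cell types were compared over whole lists. Of 13 epithelial markers 11 were found, and their sum was 134 CPM in control and 12.4 CPM in TGF-β1 cells. The difference was carried by *KRT8* (114 and 4.48 CPM) and *KRT7* (19.3 and 7.04 CPM), while *FOXA2* was at 0 in both libraries. Both keratins were among the 10 leading genes of rebuilt cluster 3, and both were lower with TGF-β1 in all 8 clusters. The sums of the other lists were 1.49 and 1.58 CPM for 7 endothelial markers and 66.7 and 64.9 CPM for 9 immune markers. Of the immune sum, *CD68* (42.6 and 43.1 CPM) was the largest part, with *CD14* at 14.0 and 9.75 CPM. The sum was 748 and 659 CPM for 7 pericyte and smooth muscle markers, with *RGS5* at 51.7 and 61.1 CPM and *MYH11* at 42.9 and 25.3 CPM. *DES* (646 and 569 CPM) was the largest part of it and, like *CD68*, was named after its values were seen. Of the 9 stromal markers 4 were higher and 5 lower with TGF-β1. *PDGFRA* (50.5 and 16.7 CPM) and *THY1* (216 and 87.5 CPM) were more than 2-fold lower with TGF-β1, and the list had a median of -0.23. Of 9 cycling markers, 8 were lower (*TOP2A* at 13.2 and 8.25 CPM) and *AURKA* was higher (16.1 and 24.2 CPM). The part of these lists in the differences of the receptors was not tested.

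Over the 16 sums of cells by cluster and library, the genes whose level (log2(CPM + 1)) was most like that of *PGR* were *TCAF1* (Pearson's r = 0.97), *PDE5A* (0.96) and *USP8* (0.96). For *ESR1* they were *AKR1E2*, *ZBTB38* and *ZFP36L1* (all 0.97), for *NR3C1* they were *RNF103*, *SNX9* (both 0.99) and *ATP6V1H* (0.98), and for *NR3C2* they included *TARBP1* and *ZEB1* (both 0.95). *FKBP5* was most like *VRK2*, *ZNF277* and *THAP12* (0.94 to 0.97), *FKBP4* most like *SNRNP40*, *LSM2* and *LSM3* (0.93 to 0.95), and *PGRMC1* most like *NDUFAF5*, *RBM14* and *MACROH2A2* (0.80 to 0.83). Among the 7 genes with at least 10 CPM, *PGR* and *ESR1* had an r of 0.91 and *NR3C1* and *NR3C2* an r of 0.80, followed by *ESR1* and *NR3C1* (0.60), *PGR* and *FKBP5* (0.58) and *NR3C2* and *FKBP5* (0.54). The 16 sums share 2 libraries, differ in depth, and rank 7213 candidate genes, so these values describe likeness only.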

How the data were processed

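UMI counts per gene and cell barcode were deposited by the authors for each library. They were made with Cell Ranger against EquCab3.0 with the Ensembl annotation. Cell Ranger 7.1.0 is named in the methods and the submitters' processing notes, and 8.0.1 in the file headers. Whether reads in introns were counted is not given in the sources used here. The counts were whole numbers to which the cell filters had not been applied. The removal of doublets and the separation of mares by the study rest on reads and were not repeated.

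The study's filters on UMIs, genes and mitochondrial share were applied. UMIs of the kept cells (210497250 in control and 219731144 in TGF-β1) were summed per library or cluster and scaled to CPM. Ratios carry no pseudocount. None was formed where both libraries held 3 or fewer UMIs, or within a cluster where either did. Intervals are exact binomial (Clopper-Pearson) at 95%, and those of differences between shares are Newcombe's. They cover counting error alone. The cells were clustered anew in Seurat 5.3.0 (R 4.3.3) with 2000 variable genes, 30 dimensions, canonical correlation integration and a resolution of 0.5, and were not matched to the study's. The rule of at least 3 cycling markers more than 2-fold higher for a cycling-like name was carried over from earlier work on these data. Other steps used Python 3.11.15, numpy 2.4.6, scipy 1.17.1, pandas 2.3.3 and matplotlib 3.10.9. Of these steps, only the log2 ratio with its interval was tested on simulated counts.

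The 9 genes, the lists and the settings were chosen with earlier results of these data known. From each list the text names genes that average 10 CPM or more and differ over 2-fold, at most 5, or else the highest and the lowest. Like genes are the 3 with the highest r at that level. Alternatives changed the cell filters, the 98th percentile of UMIs, the scaling, the thinning, the fold limit, the CPM minimum and the clustering. No sequences or genome positions were used. A few genes that this rule would name are not reported here.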

Additional observations from a re-analysis of the deposited data

Results flagged for a closer look

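In 2 of the 9 genes the difference between libraries went opposite ways in rebuilt clusters whose counting intervals lay on either side of 0, as in 1057 (8.72%) of the 12116 genes that averaged 1 CPM or more. *NR3C2* had a log2 ratio (TGF-β1 over control) of 1.22 in rebuilt cluster 3 and -0.84 in rebuilt cluster 7, the latter from 102 control and 27 TGF-β1 UMIs. *HSD11B1* had a log2 ratio of 0.92 (0.11 to 1.78) in the cycling-like rebuilt cluster 6, from 20 control and 39 TGF-β1 UMIs, and -0.63 (-0.90 to -0.36) in rebuilt cluster 2, from 279 and 197 UMIs. With 1 library per group the difference between clusters was not tested, and both genes were among those used to draw the clusters.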

How the results depend on the processing

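All 9 ratios kept their direction under 11 alternatives each. *ESR1* ranged from -1.11 to -0.995, *PGR* from -0.81 to -0.74, *NR3C1* from 0.50 to 0.54 and *NR3C2* from 0.65 to 0.75. Standardised over the 4 bins of UMIs per cell, the log2 ratios were -1.11 for *ESR1*, 0.54 for *NR3C1*, -0.41 for *HSD11B1* and -0.26 for *FKBP5*. Without rebuilt cluster 7, an alternative added after seeing the data, *ESR1* was at -0.995 and 0 of the 9 genes passed 2-fold.

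Differences in the share of cells depended on depth. Thinned to 10000 UMIs they were -10.0 points for *PGR*, -8.60 for *ESR1* and -3.88 for *FKBP5*. Not thinned they were -18.0 for *PGR*, -2.58 for *ESR2*, 1.77 for *NR3C1*, -1.54 for *HSD11B1*, -10.4 for *FKBP5* and -2.85 for *FKBP4*. Counting cells with 2 UMIs or more they were -8.12 for *PGR*, 3.01 for *NR3C2* and -2.02 for *FKBP5*.

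At a 1.5-fold limit 3 of the 7 genes with at least 10 CPM and 970 of all 7658 passed, and with a minimum of 1 CPM 837 of 12116 genes passed 2-fold, against 339 of 7658. The median of the steroid metabolism list turned to 0.053 over genes with at least 10 CPM. *PGR*, *ESR1* and *FKBP5* were lower and *NR3C1* higher in every cluster at resolutions of 0.3 (6 clusters) and 0.8 (11 clusters). *ESR2* was higher in 2 of 10 clusters at 0.8. Without integration 1 of 9 clusters held 50 cells of each library, and there *ESR2* and *HSD11B1* were higher and *PGRMC1* and *FKBP4* were not. No analysis paired by mare was possible here, because the mares pooled in each library were not separated again. The depth limits *ESR2* and *HSD11B1* most, and the spread between mares is unknown.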
